A study of Mus musculus with 2 samples.

Results

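Protease inhibitors of the serpin, Kazal (Spink), Kunitz (Spint) and WAP four-disulfide core (WFDC) families were examined in the mouse ventral prostate, in a wild-type sample and in one labelled as a U19/Eaf2 knockout. Members were the genes whose symbol in the platform annotation begins with Serpin followed by a clade letter from a to i and a number, or with Spink, Spint or Wfdc and a number, together with Slpi. Only probe sets listed with 1 symbol were used. The names gave 61 genes of 18193, read by 77 probe sets, and comprised 39 serpins, 10 Spink and Spint genes and 12 WFDC genes including Slpi. The rule uses names only, with no signal or ratio in it.

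Expression had been profiled in 2 samples of ventral prostate from male C57BL/6J mice aged 3 months. The wild-type sample carried the genotype U19/Eaf2 +/+, and the other was labelled U19/Eaf2 -/-. Each was hybridised to 1 Affymetrix array, so there was no replicate and no test was possible. U19/Eaf2 is a binding partner of ELL transcription elongation factors and is studied as an androgen-induced tumour suppressor. The deleted part of the gene and any pooling of animals are not stated in the sources used here.

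Proteases are held in check by inhibitors that are often secreted beside them. Serpins trap a protease by a suicide mechanism, in which the protease cleaves a reactive loop and is carried across the inhibitor. Kazal, Kunitz and WAP domains are small disulfide-bonded folds that block the active site directly and reversibly. In the mouse, prostatic secretion is known for Spink1, also called Spink3 or P12, a trypsin inhibitor of seminal fluid, while Spint1 and Spint2 restrain the membrane-anchored serine proteases of epithelia.

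Signals are probe-set brightness in arbitrary units. Probe sets differ in affinity, so a brighter gene need not have more mRNA. The floor was a signal of 166, the median of all non-control signals, and a gene entered when either array reached it. A value below it was raised to it, and a fold change resting on such a value is a bound, written as at least so many fold. Of the 61 genes 28 entered, 22 of them above the floor on both arrays. The log2 ratio is that of the knockout-labelled array over the wild-type array. The Eaf2 probe set read 691 in wild type and 702 on the other array, so the label could not be checked from it and is taken as given. The 3' over 5' ratio of Actb, a guide to RNA degradation, was 1.25 in wild type and 1.65 on the knockout-labelled array. That of Gapdh was 0.71 in wild type and 0.85 on the knockout-labelled array. The part of RNA degradation in the values below was not tested. With arrays from bulk tissue, fewer cells of a type and less RNA per cell cannot be told apart.

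The labelled tissue was checked by its secretory markers. Of 7 with a probe set 6 entered, and Pbsn, Msmb and Abo had signals from 20058 to 41774. Of the 6, 5 read lower on the knockout-labelled array, with a median log2 ratio of -0.37, and Spink1, itself a member, was the other. All 7 seminal vesicle markers with a probe set lay below the floor.

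Sequences upstream of the transcription start are shown for 5 genes, 3 with bright signals (Wfdc3, Spint2 and Spint1) and 2 serpins of connective tissue that read lower on the knockout-labelled array (Serpinh1 and Serpinf1). They are RefSeq sequences of build GRCm38.p6, each the 250 bases before the start and written 5′ to 3′ on the strand of the gene. Capitals mark GGGCGG, the core of a GC box bound by Sp-family factors, or its reverse complement CCGCCC. The windows are chr2:164743268-164743517 (minus strand) for Wfdc3, chr7:29281978-29282227 (minus strand) for Spint2, chr2:119237110-119237359 (plus strand) for Spint1, chr7:99353240-99353489 (minus strand) for Serpinh1 and chr11:75422624-75422873 (minus strand) for Serpinf1.
Wfdc3: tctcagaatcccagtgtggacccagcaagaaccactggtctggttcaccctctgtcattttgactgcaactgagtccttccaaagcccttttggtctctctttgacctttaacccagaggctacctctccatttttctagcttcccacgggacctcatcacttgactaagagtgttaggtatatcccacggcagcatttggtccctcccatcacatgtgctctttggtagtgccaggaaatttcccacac
Spint2: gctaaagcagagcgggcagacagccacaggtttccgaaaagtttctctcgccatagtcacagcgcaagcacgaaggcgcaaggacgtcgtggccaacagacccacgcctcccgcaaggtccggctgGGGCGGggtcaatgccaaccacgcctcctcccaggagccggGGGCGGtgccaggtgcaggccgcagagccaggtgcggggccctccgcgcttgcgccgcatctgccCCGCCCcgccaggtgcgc
Spint1: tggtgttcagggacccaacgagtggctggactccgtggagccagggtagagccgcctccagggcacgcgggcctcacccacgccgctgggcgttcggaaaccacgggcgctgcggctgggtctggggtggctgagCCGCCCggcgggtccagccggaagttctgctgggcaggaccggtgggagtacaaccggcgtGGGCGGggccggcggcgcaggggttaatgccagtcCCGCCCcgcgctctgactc
Serpinh1: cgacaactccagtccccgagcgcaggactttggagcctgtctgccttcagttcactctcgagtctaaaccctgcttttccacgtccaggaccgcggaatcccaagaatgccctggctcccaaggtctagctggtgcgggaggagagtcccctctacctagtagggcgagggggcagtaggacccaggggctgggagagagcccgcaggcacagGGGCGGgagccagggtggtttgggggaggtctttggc
Serpinf1: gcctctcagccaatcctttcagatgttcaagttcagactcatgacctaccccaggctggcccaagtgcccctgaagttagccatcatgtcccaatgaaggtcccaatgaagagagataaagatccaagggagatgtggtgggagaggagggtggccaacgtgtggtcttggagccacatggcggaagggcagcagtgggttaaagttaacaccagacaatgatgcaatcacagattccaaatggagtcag

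The Kunitz inhibitors Spint2 and Spint1 held 3 GC-box cores each and Serpinh1 held 1, while the windows of Wfdc3 and Serpinf1 held 0. Their GC content was 69.6%, 72.8% and 63.6% against 49.6% and 51.6%. Over 27025 genes with a window of the same length, 32.9% held GGGCGG on either strand. Of 47 protease inhibitors with a window (the first listed where a gene has several), 20 had entered on the array, and 6 of these held it, against 3 of the 27 below the floor. The TATA-box core TATAAA, searched on both strands, was in 0 of the 20 and in 8 of the 27, against 13.0% of all windows. The motif AGAACA, a half-site of androgen receptor elements, was in 4 of the 20 and 8 of the 27, against 16.2%. These matches are letters in a window and not binding sites.

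By the mean of both arrays, the Kazal inhibitors Spink1 and Spink5 gave the 2 brightest signals among the members, although in wild type Wfdc3 read above Spink5. Spink1 read 62610 in wild type and 64718 on the knockout-labelled array, a log2 ratio of 0.05. Its probe set was the 2nd brightest non-control probe set in wild type and the 3rd brightest on the other array. The highest signals on the arrays were 63443 and 65368, so the reading lay close to the top of the scale, and whether it was saturated was not tested. Under quantile normalization its log2 ratio was -0.04.

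Spink5 encodes LEKTI, a multi-domain Kazal inhibitor that in skin restrains the kallikreins Klk5, Klk7 and Klk14. Its single probe set read 20123 in wild type and 30220 on the knockout-labelled array, 1.502-fold higher, with a log2 ratio of 0.59 that ranged from 0.52 to 0.61 over the alternative settings. Ratios of that size were uncommon at this brightness. Of 224 genes with a signal of at least 10000 on both arrays, 4 were at least 1.5-fold higher, or 1.79%, Spink5 among them, and 0.446% were at least as much lower. Klk7 read 180 and 35.8 and Klk5 79.4 and 9.98, so that Klk7 reached the floor in wild type only and Klk5 on neither array. Klk14 had no probe set listed with its symbol alone and could not be read. Of 5 keratinocyte markers, Krt10 read 269 and 190, Lor read 262 and 236, and Krt1, Flg and Ivl lay below the floor, with summed signals of 563 and 454 for the whole list.

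The third Kazal gene to enter, Spink8, read 412 and 299, 1.38-fold lower on the knockout-labelled array. The other 4 Spink genes, Spink2, Spink4, Spink10 and Spink12, lay below the floor on both arrays, with signals of at most 115.

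The Kunitz inhibitors Spint1 and Spint2, also called HAI-1 and HAI-2, differed little between the arrays. They block matriptase (St14), prostasin (Prss8) and the activator of hepatocyte growth factor (Hgfac). Spint1 read 3241 in wild type and 3058 on the other array, a log2 ratio of -0.08. Spint2 read 18641 and 19177 in its brighter probe set and 17469 and 14184 in the other, log2 ratios of 0.04 and -0.30. The probe sets of Spint2 went opposite ways, so no direction is given for it. Spint4, a gene of the WAP and Kunitz cluster on chromosome 2, was at most 10.8.

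Their target proteases were read on the same arrays. Matriptase, St14, read 1904 and 2119, a log2 ratio of 0.15, and Prss8 read 2314 and 1752, a log2 ratio of -0.40. Hgfac read 218 and 219, and its substrate Hgf read 204 and 163, at least 1.23-fold lower. The hepsin gene Hpn was below the floor at 14.4 and 39.3. Among matriptase and these inhibitors the largest difference, in the brightest probe sets, was that of St14 at 1.11-fold. Prss8 differed more, at 1.32-fold lower, as did the other Spint2 probe set, at 1.23-fold lower.

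**Figure D1:**
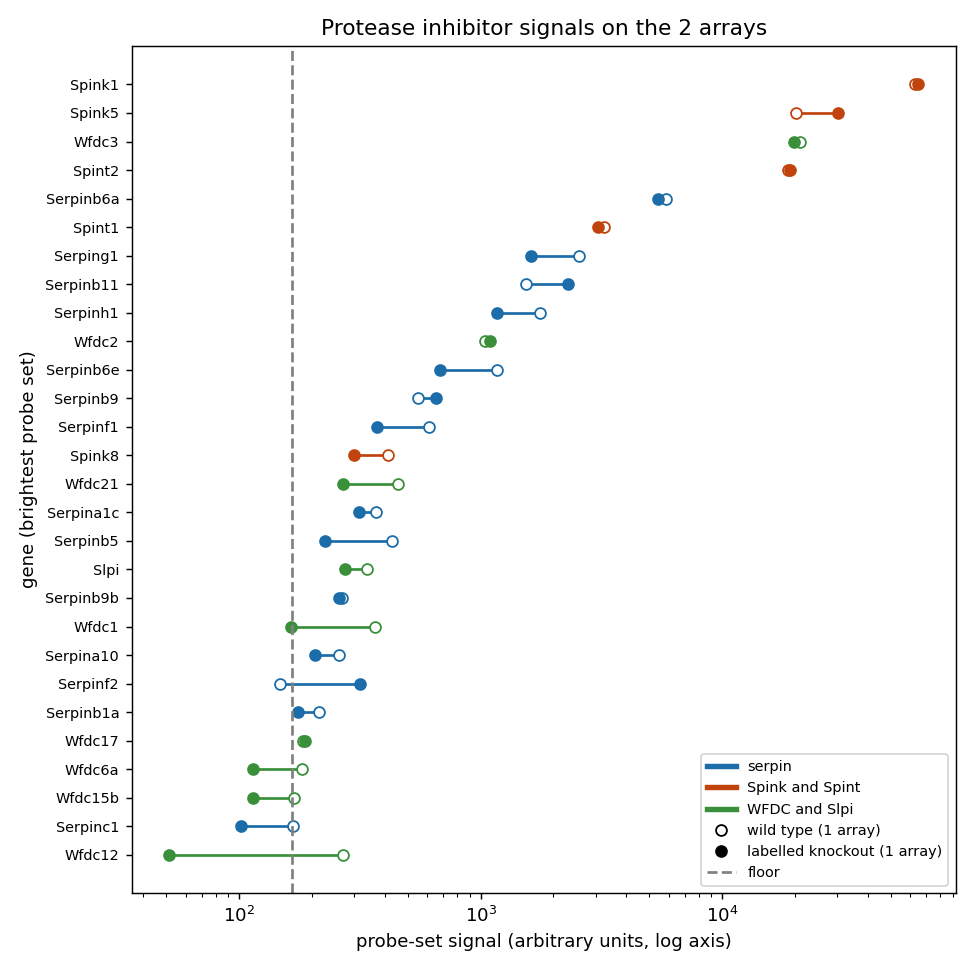
Signals of the 28 protease inhibitor genes that entered, on a log axis in arbitrary units, with an open circle for the wild-type array, a filled circle for the knockout-labelled array and a dashed line at the floor of 166. Spink1 stands at 62610 and 64718, among the genes above 10000 the widest gap is that of Spink5 at 20123 and 30220, and 6 genes cross the floor.

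Serpins formed the largest family, and most of those that entered read lower on the knockout-labelled array. Of 39 serpins 14 entered, 11 lower and 3 higher, with a median log2 ratio of -0.26, against 53.0% lower and a median of -0.03 among all 11671 genes that entered. Genes enter through their higher array, so these counts describe the genes that entered and not the family. Serpinc1, a bound close to 1, is among the 11. Of the 12 above the floor on both arrays, 10 were lower and 2 higher, against 5298 and 5133 of all 10431 such genes. In the brightest probe sets, with values raised to the floor, none of the 14 reached 2-fold in either direction. Of all genes 0.591% did upward and 0.883% downward. Serpinf2 is a bound, and under loess its log2 ratio was 1.06, past 2-fold. The second probe set of Serpinf1 was at least 2.84-fold lower. At 1.5-fold, 4 were lower and 1 higher, where 6.26% of all genes were lower and 4.69% higher.

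Serping1, Serpinf1 and Serpinh1, which fibroblasts are known to make, were among the lower ones. Serping1, the C1 inhibitor that controls the complement proteases C1r and C1s, read 2542 in wild type and 1609 on the knockout-labelled array, 1.58-fold lower, and its log2 ratio stayed between -0.74 and -0.63 over the alternative settings. Its target C1s1 read 900 and 558, 1.61-fold lower, and C1ra read 385 and 331, 1.16-fold lower. The inhibitor and both proteases were lower on the same array, as were 53.0% of all genes. The log2 ratio of C1ra, -0.22, lies within the SD per probe set of 0.33 given below. The C1s1 probe set has a name ending in _s_at, _x_at or _a_at.

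Serpinf1 encodes pigment epithelium-derived factor, a serpin without protease inhibition that restrains vessel growth. It read 610 and 372, 1.64-fold lower, in its brighter probe set, and 471 and 73.2, at least 2.84-fold lower, in the other. Serpinh1, or Hsp47, is a serpin-fold chaperone of procollagen in the endoplasmic reticulum. It read 1753 and 1172, 1.496-fold lower, and 1345 and 1025, 1.31-fold lower, in its second probe set. Both probe sets of each gene agreed in direction.

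Markers of smooth muscle and of fibroblasts were lower on the same array. All 6 smooth muscle markers were lower, with a median log2 ratio of -0.56 and summed signals of 50299 in wild type and 37125 on the other array. All 8 fibroblast markers were lower, with a median of -0.53 and summed signals of 24766 and 20155. The collagen gene Col3a1 read 5158 and 3402, while Col1a1 read 915 and 883 and Dcn 10854 and 10610. No defining marker of either list was below the floor. Of 5 endothelial markers that entered 3 were lower and 2 higher, with a median log2 ratio of -1.8e-05, and Pecam1 was below the floor. The part of these markers in the lower signals of Serping1, Serpinf1 and Serpinh1 was not tested.

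Serpinf2, the plasmin inhibitor alpha-2-antiplasmin, went the other way. It lies beside Serpinf1 on chromosome 11 and read 147 in wild type, below the floor, and 315 on the knockout-labelled array, at least 1.90-fold higher in its single probe set. Its target plasminogen, Plg, was below the floor at 131 and 61.5. The plasminogen activator Plat read 288 and 249, and Plau was below the floor at 62.9 and 37.7. Of 5 liver markers, Ttr read 686 and 874 and Alb 468 and 322, and Fgb and Ahsg were below the floor, with summed signals of 1320 and 1461. Antithrombin, Serpinc1, read 167 and 101, a bound too close to 1 to give a direction.

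The intracellular clade B serpins, which guard cells against leaked or imported proteases, varied among themselves. Of 18 genes 7 entered, 5 lower and 2 higher, with a median log2 ratio of -0.10, against 53.0% lower and -0.03 among all genes. Serpinb5, or maspin, a serpin of myoepithelial and basal cells that is studied as a tumour suppressor, read 429 and 226, 1.90-fold lower. Its second probe set above the floor read 257 and 209, 1.23-fold lower, which is also the value without suffixed probe sets (names ending in _s_at, _x_at or _a_at). The other 2 probe sets, below the floor, read 112 and 91.8 and 104 and 65.7. All 4 probe sets read lower, by unequal amounts. Among basal markers Krt5 read 772 and 504, Krt15 289 and 297 and Trp63 594 and 633, with Krt14 below the floor and summed signals of 1801 and 1515. The part of basal cells in the Serpinb5 value was not tested.

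Serpinb6a, an inhibitor of trypsin-like proteases and of cathepsin G, was the brightest serpin. It read 5839 and 5439, a log2 ratio of -0.10. Serpinb6e, a close relative in the same cluster on chromosome 13, read 1172 and 681, 1.72-fold lower. Its only probe set ends in _x_at, a type that can bind related transcripts, so signal from other Serpinb6 genes cannot be told apart. Serpinb6b and Serpinb6c were below the floor.

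Serpinb11, a clade B serpin of the chromosome 1 cluster, read 1544 and 2306, 1.494-fold higher, with a log2 ratio from 0.51 to 0.60 over the settings. Serpinb5 belongs to the same chromosome cluster and read lower, so neighbours in it differed in direction. The granzyme B inhibitor Serpinb9 read 549 and 656 in its brighter probe set and 268 and 266 in the other, while Gzmb itself read 179 and 199. Its relative Serpinb9b read 266 and 260. Serpinb1a, an inhibitor of neutrophil elastase, read 213 and 176, and its second probe set, below the floor, read 28.5 and 81.9. Of 5 neutrophil markers only Mpo reached the floor, at 199 in wild type, and Elane was at 111 and 115.

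Clade A holds the antitrypsins and antichymotrypsins of plasma, and most of it lay below the floor. Of 13 genes 11 did so on both arrays, among them corticosteroid-binding globulin, Serpina6, at 4.87 and 10.5 and the protein C inhibitor Serpina5 at 4.93 and 27.0. Serpina1c, an alpha-1-antitrypsin, read 367 and 312, and Serpina10, the inhibitor of activated coagulation factor X, read 260 and 207. The Serpina1 genes are near copies of each other, so the reading named Serpina1c is uncertain as to gene. The probe sets listed for Serpina1d with Serpina1a and for Serpina1e with Serpina1c and Serpina1b read at most 121, below the floor.

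**Figure D2:**
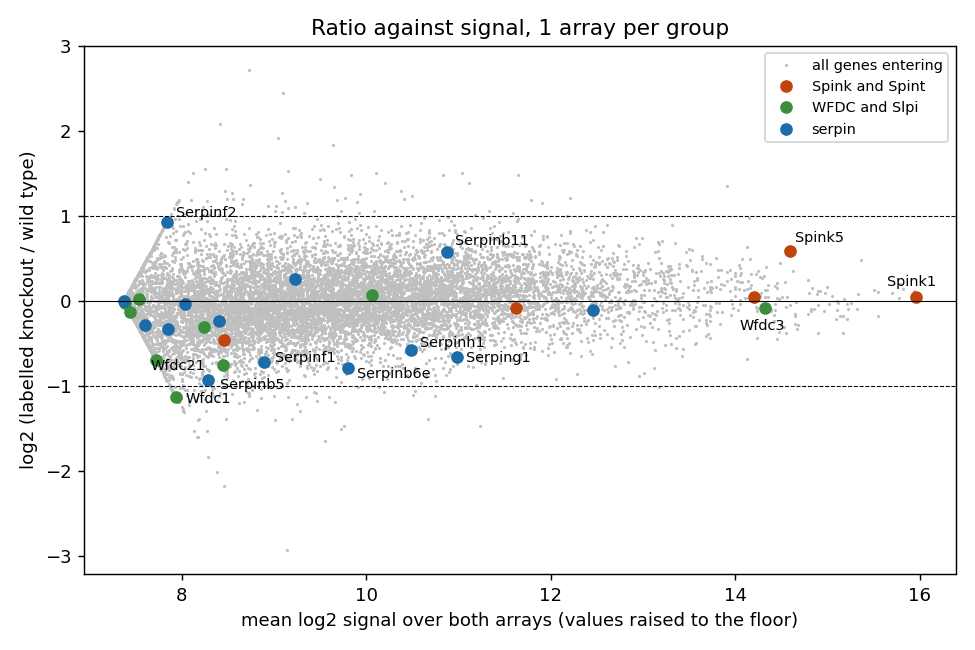
The log2 ratio of the knockout-labelled array over the wild-type array is plotted against the mean log2 signal of both arrays for the 11671 genes that entered (grey) and the 28 protease inhibitors (coloured by family), with dashed lines at 2-fold. The straight edges at the left come from values raised to the floor, Spink5 lies at 0.59 among the bright genes, and Wfdc1 at -1.13 is the only coloured point beyond a dashed line.

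WAP-domain genes held both a very bright member and the only member past 2-fold once values were raised to the floor. Of 12 genes 9 entered, 7 lower and 2 higher, with a median log2 ratio of -0.13, where 53.0% of all genes were lower. Of the 7, 4 entered through the wild-type array alone (Wfdc1, Wfdc12, Wfdc6a and Wfdc15b). Of the 5 genes above the floor on both arrays 3 were lower and 2 higher, against 5298 and 5133 of all 10431 such genes. Wfdc3 was counted as lower by its brighter probe set. Wfdc1, or ps20, is a WAP protein secreted by prostate stroma. It read 364 in wild type and 165 on the knockout-labelled array, just below the floor, at least 2.19-fold lower. With values raised to the floor, it was the only one of the 28 genes that reached 2-fold lower, where 0.883% of all genes did. Of the 28, 0 reached 2-fold higher, where 0.591% of all genes did. With 1 probe set of the _a_at kind, Wfdc1 has no second reading. Under quantile normalization and loess its log2 ratios were -0.999 and -0.99, just short of 2-fold, and with a pseudocount of 50 the log2 ratio was -0.95. The smooth muscle and fibroblast markers given above were all lower too, and their part in this value was not tested.

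Wfdc3 read 21010 and 19844, a log2 ratio of -0.08, in its brighter probe set. The second probe set of this gene read 235 and 354, 1.51-fold higher, so the direction of Wfdc3 depends on the probe set. Wfdc2, known as HE4 and secreted by many glandular epithelia, read 1043 and 1097, a log2 ratio of 0.07. The brightest probe sets of Wfdc3 and Wfdc2 thus differed by 1.06- and 1.05-fold.

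The dimmer WAP genes differed among themselves. Wfdc21 read 453 and 269, 1.69-fold lower, and Wfdc12 read 268 and 51.4, at least 1.62-fold lower. With the floor at the 30th percentile the log2 ratio of Wfdc12 was -2.03, past 2-fold. Slpi, the secretory leukocyte protease inhibitor that blocks neutrophil elastase at mucosal surfaces, read 338 and 274, 1.23-fold lower. Wfdc17, a WAP gene of macrophages next to Wfdc21, read 185 and 187. Of 6 macrophage markers 3 were higher and 3 lower, with summed signals of 4223 and 4144. Wfdc6a at 181 and 114 and Wfdc15b at 169 and 114 crossed the floor, and their bounds are close to 1.

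The genes were also grouped by chromosome. Chromosome 2 carries the WAP cluster, but also Serping1 and Spint1, which are not WAP genes. Of its 11 members 8 entered, from -0.69 to 0.07 on the log2 scale, with 7 lower, against 53.0% of all genes. Of the 7, 3 are bounds. Above the floor on both arrays 4 were lower and 1 higher, against 5298 and 5133 of all 10431 such genes. The 4 were Serping1, Spint1, Slpi and Wfdc3, and the second probe set of Wfdc3 read higher. On chromosome 13, 4 of 5 serpins that entered were lower, against 53.0% of all genes. The log2 ratios of the 4 were -0.03 for Serpinb9b, -0.10 for Serpinb6a, -0.28 for Serpinb1a and -0.78 for Serpinb6e, whose only probe set is of the _x_at kind. On chromosome 18 the 2 that entered, Spink1 and Spink5, were both higher, where 47.0% of all genes were. Spink1 was higher by 0.05 only and not under quantile normalization. On chromosome 11 the 4 that entered were 2 lower and 2 higher, between -0.75 and 0.93.

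**Figure D3:**
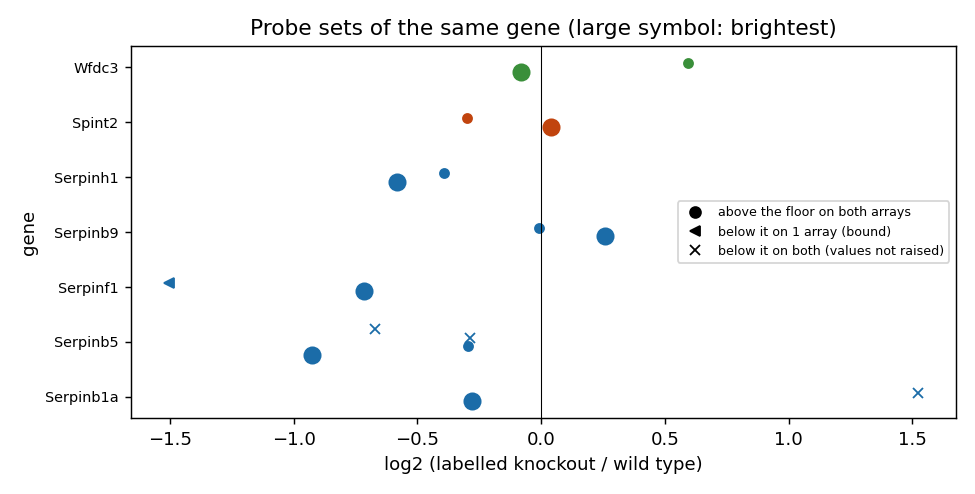
Log2 ratios of every probe set of the 7 entering genes that have more than 1, with the brightest probe set as a large symbol, circles for readings above the floor on both arrays, a triangle for a bound and crosses for readings below the floor. All probe sets of Serpinf1, Serpinh1 and Serpinb5 lie to the left of 0, while those of Spint2, Wfdc3, Serpinb9 and Serpinb1a lie on both sides.

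The spread between probe sets of a gene was the only error available. Over 4497 genes whose 2 brightest probe sets both passed the floor everywhere, the difference in log2 ratio between them had an SD of 0.47, or 0.33 per probe set. Variation between animals or between hybridisations is not in it. Of the 28 genes 15 lay within 0.33 of 0, and 66.3% of all genes did. Of the 6 members with more than 1 probe set that entered, 3 had the same direction in all of them (Serpinb5, Serpinf1 and Serpinh1).

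Together the 28 genes were 20 lower and 8 higher, with a median log2 ratio of -0.11, against 53.0% lower and a median of -0.03 over all genes. Of the 28, 15 were lower and 7 higher above the floor on both arrays, against 5298 and 5133 of all 10431 such genes. The counts were 18 lower and 10 higher under median centring and under loess, where 49.996% and 50.1% of all genes were lower, and 18 and 8 under quantile normalization, where 49.1% were. The 33 genes below the floor on both arrays comprised 25 serpins, 5 Spink and Spint genes and 3 WFDC genes. Their signals ran from 0.395 to 161. Just below the floor were Serpini1 (neuroserpin) at 161 and 18.1, Serpina1b at 158 and 142 and Serpinb8 at 155 and 60.6.

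Proteases that these inhibitors act on, with their partners, and inhibitors of other families were read for comparison. Of 65 protease-side genes listed 57 had a probe set and 24 entered. Of the 24, 15 were lower and 9 higher, with a median log2 ratio of -0.13, against 53.0% lower and -0.03 over all genes. Above the floor on both arrays 10 were lower and 9 higher, against 5298 and 5133 of all 10431 such genes. Under quantile normalization and under loess the median was -0.03. The lowest were C1s1, the collagen-degrading cathepsin Ctsk at 295 and 202 (1.46-fold lower) and Klk1b21 at 234 and 67.8 (at least 1.41-fold lower). The highest were Furin, a proprotein convertase, at 895 and 1359 (1.52-fold higher), the androgen-regulated protease Tmprss2 at 4592 and 6640 (1.45-fold higher, with 1 of 2 other probe sets opposite) and the urokinase receptor Plaur at 190 and 264 (1.38-fold higher). None reached 2-fold.

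Of 48 other inhibitors listed 42 had a probe set and 22 entered. Of the 22, 13 were higher and 9 lower, with a median log2 ratio of 0.12, where 47.0% of all genes were higher. Above the floor on both arrays 12 were higher and 5 lower, against 5133 and 5298 of all 10431 such genes. The highest was Mug1, a broad-range macroglobulin, at 1979 and 3645, 1.84-fold higher. The amyloid precursor App, whose long form carries a Kunitz domain, read 4331 and 6989, and the testican Spock1 read 181 and 267. The lowest were the metalloproteinase inhibitors Timp3 at 877 and 556 and Timp2 at 7140 and 5452, each with 1 other probe set opposite, and Spock2 at 232 and 152. The median turned to -0.01 when each gene took its least different probe set, to -0.08 with a floor at the 30th percentile and to -0.26 with no floor.

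**Figure D4:**
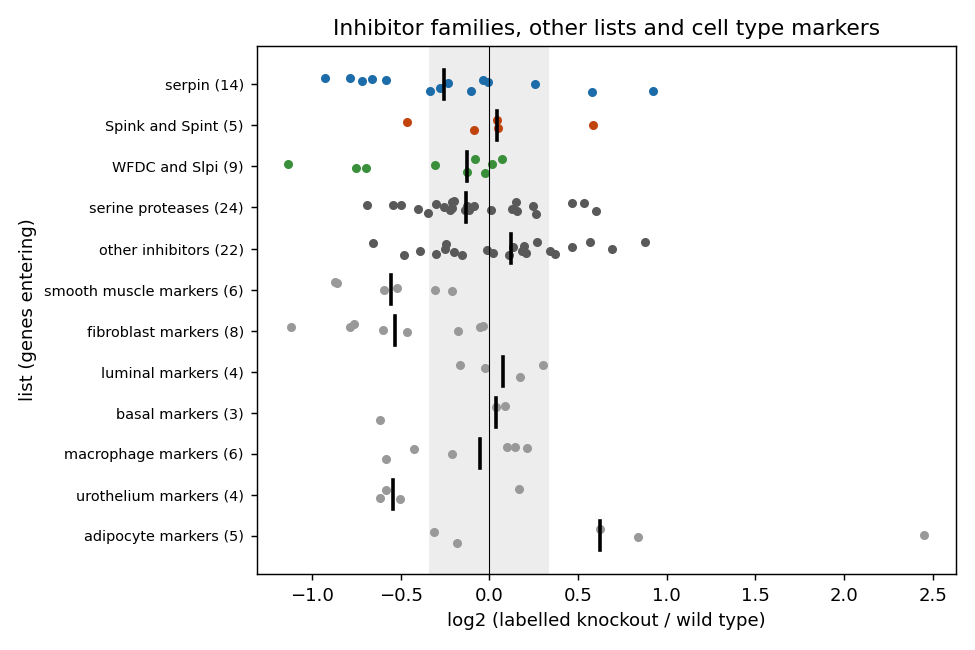
Log2 ratios of the entering genes in the 3 inhibitor families, the protease and other-inhibitor lists and 7 cell type marker lists, with the median as a black bar, the number of genes in parentheses and a grey band of 0.33, the SD per probe set, on each side of 0. Serpins have a median of -0.26 and smooth muscle and fibroblast markers of -0.56 and -0.53, while the Spink and Spint median of 0.04 turned to -0.04 under quantile normalization and -0.03 under loess.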

How the data were processed

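Probe-set signals from 2 arrays, 1 wild type and 1 labelled knockout, were used. The authors deposited linear intensity values, which were never negative, and GCOS 1.4 is named per the submitters' processing notes, its settings not being stated in these sources. The mean without the highest and lowest 2% was 499.9 on both arrays. Of 45037 non-control probe sets, 34945 had 1 symbol in the platform annotation, and the 61 members all matched a RefSeq gene by Entrez ID.

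The probe set with the highest log2 signal averaged over the arrays stood for its gene. Pooled non-control signals gave the floor, at their 50th percentile. No pseudocount was added, and counts used thresholds of 2-fold and 1.5-fold. With 1 array per group there is no test, and the number of arrays limits the precision. Full values were given for the brightest members, those at least 1.5-fold different and the extremes of each family. Of the other lists, up to 3 highest and 3 lowest were named, and proteases that a member is known to inhibit were added after their values were seen. Alternatives were median centring, quantile normalization, loess (span 0.4), a floor at the 30th or at the 70th percentile or none, a pseudocount of 50, 3 other choices of probe set and thresholds of 1.5- and 3-fold. The calculation was tested on simulated arrays. Members and lists were chosen with earlier results of these data known. Python 3.11.15, numpy 2.4.6, pandas 2.3.3 and statsmodels 0.14.6 were used.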

Additional observations from a re-analysis of the deposited data

How the results depend on the processing

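Direction was kept by 21 of the 28 genes under every alternative that gave them a value. The other 7 were Serpinb9, Serpinb9b, Serpinc1, Spink1, Spint2, Wfdc15b and Wfdc3, which lay no farther than 0.26 from 0. The serpin median ran from -0.33 to -0.13 and the WFDC median from -0.42 to -0.08 over the 10 alternatives. The Spink and Spint median turned in 5 of them, to at lowest -0.08, and the protease median turned to 0.15 when the floor was the 70th percentile. The median of the other inhibitors was -0.26 with no floor. Genes at least 2-fold higher numbered 0, and became 1 under loess, 3 with the floor at the 30th percentile, 11 with no floor and 2 at a threshold of 1.5-fold. Genes at least 2-fold lower numbered 1, and became 0 under quantile normalization, loess, the floor at the 70th percentile, without suffixed probe sets and at a threshold of 3-fold, 2 with the median over probe sets, 4 with the floor at the 30th percentile, 10 with no floor and 7 at 1.5-fold. A lower floor admits more genes (42 and 61) and also raises fewer values of genes already in. With the floor at the 30th percentile, Wfdc12 moved from -0.69 to -2.03 and Serpinf2 from 0.93 to 1.10, both already among the 28. The cause was not otherwise tested. Values were compared with the SD per probe set of 0.33, as there were no replicates. No paired analysis was possible because each group holds 1 sample. Signal over background limits the genes near the floor.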

Other observations

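Inhibitors of other protease classes, chosen here after their values were seen, were also read. The cystatins, which block cysteine proteases, had Cstb at 13838 and 17870 and Csta1 at 2510 and 2707, and Cst3 at 3778 and 3185, with 1 other Cstb probe set opposite. Calpastatin, Cast, the inhibitor of calpains, read 1766 and 2441, with 1 of 2 other probe sets opposite. The metalloproteinase inhibitor Timp4 read 9203 and 10527 and its other probe set above the floor had a log2 ratio of -0.97. The cathepsins Ctsl, at 7345 and 8038, and Ctss, at 1347 and 1598, are proteases that cystatins block.

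Markers of bladder urothelium and fat also differed between the arrays. Of 4 uroplakins 3 were lower, with summed signals of 6703 and 4804. Of 5 fat markers that entered 3 were higher, with summed signals over the 6 listed here of 1579 and 3187. Car3 alone read 234 and 1278, and Retn and Plin4 were lower. Their part in the inhibitor values was not tested.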
